A study of Mus musculus with 14 samples.

Results

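The genes described here serve iron uptake, storage and its hormonal control, and were followed by symbol through Visium sections of mouse blood-forming organs. They are Tfrc, Tfr2, Trf, Steap3, Slc11a2, Slc25a37, Glrx5, Fth1 and Hamp, 9 of the 32589 features in the tables of the purchased mice and 9 of the 19465 features in the tables of the C1qa cross. All 9 were found in both tables. Visium here is a probe-based assay of fixed, paraffin-embedded tissue in which each barcoded spot covers several cells, and its readout is a count of unique molecular identifiers (UMIs) per gene and spot. UMIs were summed over the in-tissue spots of a section with at least 1000 detected genes and scaled to the section's total as CPM. CPM is not divided by probe number or transcript length, so levels are compared between sections and never between genes.

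The series holds 14 sections in 10 groups. Of these, 8 form the set called the cross here, with C1qa knockout mice and their wild-type controls. The study crossed heterozygous mice to obtain its knockouts, and its wild-type and knockout fetal livers were littermates from heterozygous dams. The study's text does not state whether the wild-type spleens came from the same cross. This set holds 2 wild-type and 2 knockout fetal livers at E14.5, numbered 2 and 4, and 2 wild-type and 2 knockout adult spleens, numbered 1 and 2 and labelled as 3 months old. The other 6 came from purchased C57BL/6 wild-type mice with no replicate, namely an E13.5 and an E14.5 fetal liver, P8 bone marrow, bone marrow of an 89-week mouse that was freed from the bone by cryosectioning without decalcification, bone marrow of a 6-month mouse decalcified in EDTA for 5 days, and an adult spleen. The knockout is of C1qa in every cell of the animal. C1qa encodes a chain of the complement component C1q, which in these organs is made by macrophages. Same-numbered fetal livers share a dam by the legends of the study's supplementary figures. For the spleens the sources used here do not give the litter, so p-values measure only the spread between these sections.

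Developing red cells take up more iron than any other cell type, since each must fill itself with heme. Plasma transferrin (Trf), made mainly by hepatocytes, carries iron to the transferrin receptor (Tfrc) on erythroblasts, and in the endosome the iron is reduced by Steap3 and exported by Slc11a2. Mitoferrin (Slc25a37) then brings it into the mitochondrion, where Glrx5 helps to build iron-sulfur clusters. Ferritin heavy chain (Fth1) stores iron in most cells, Tfr2 is a sensor of loaded transferrin in hepatocytes and erythroblasts, and hepcidin (Hamp) is the hepatocyte hormone that closes the iron exporter ferroportin.

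Leaving out the EDTA-decalcified marrow, sections held 4225805 to 56182915 UMIs over passing spots. In the EDTA section only 15 of 814 in-tissue spots passed, with 37167 UMIs in all, and it enters no comparison. C1qa gave 1 or 2 UMIs in each knockout section against 25.8 to 95.9 CPM in the wild-type fetal livers of the cross and 218 to 269 CPM in its wild-type spleens, so every label matched its genotype. The tissues carried their markers. The hepatocyte list held 0.669% to 10.1% of UMIs in fetal livers and at most 0.00674% in any spleen or marrow section, and the B cell list held 0.469% to 0.688% in spleens. The fetal livers of the cross were not equally pure. Spots with at least 0.5% of UMIs from the hepatocyte list made up 94.4% of spots in wild-type fetal liver 2, 29.8% in wild-type fetal liver 4, 96.6% in knockout fetal liver 2 and 62.5% in knockout fetal liver 4. Liver 2 was above liver 4 within both genotypes for 7 of the 9 members, all but Tfr2 and Slc11a2, and the part of that share in their levels was not tested.

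Tfrc, the main iron entry of erythroblasts, was highest in fetal liver and lowest in spleen. It stood at 1037 CPM in the E13.5 liver and 1404 CPM in the purchased E14.5 liver, and in the cross at 1114 CPM in wild-type liver 2, 602 CPM in wild-type liver 4, 1404 CPM in knockout liver 2 and 894 CPM in knockout liver 4. Marrow followed with 505 CPM at P8 and 426 CPM at 89 weeks. Spleens held 122 CPM in the purchased mouse, 292 and 182 CPM in the wild-type and 88.1 and 93.3 CPM in the knockout sections. The 3 tissues did not overlap, although the lowest fetal liver lay above P8 marrow by less than the spread of the cross livers (1003 ± 339 CPM, mean ± SD, n = 4), and the 2 knockout spleens were the lowest sections of all.

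Tfr2 was a gene of low counts with less separation over all passing spots. Fetal livers held 14.6 to 48.1 CPM, with both purchased livers (44.8 CPM at E13.5 and 48.1 CPM at E14.5) above all cross livers, whose values were 23.0, 14.6, 25.4 and 25.6 CPM in wild-type 2 and 4 and knockout 2 and 4. Marrow had 14.9 CPM at P8 and 18.6 CPM at 89 weeks, inside the range of the fetal livers. Spleens were below every liver and marrow section, at 7.13 CPM in the purchased mouse, 12.5 and 9.47 CPM in the wild-type sections of the cross and 5.48 and 3.34 CPM in its knockout sections.

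Steap3, the endosomal ferrireductase, held 84.6 and 80.3 CPM in the purchased E13.5 and E14.5 livers and 68.5, 49.4, 88.7 and 65.1 CPM in wild-type livers 2 and 4 and knockout livers 2 and 4. P8 marrow, at 48.3 CPM, lay just below the lowest liver, and 89-week marrow, at 26.1 CPM, was level with the highest spleen. Spleens had 10.1 CPM in the purchased mouse, 26.2 and 22.2 CPM in the wild-type sections of the cross and 11.6 and 9.91 CPM in its knockout sections. Slc11a2, the endosomal iron exporter DMT1, spanned a narrower range, with 53.9 to 93.0 CPM in the 6 fetal livers (median 68.1), 66.6 and 50.9 CPM in P8 and 89-week marrow and 25.5 to 41.3 CPM in the 5 spleens (median 27.7). For Slc11a2, P8 marrow fell among the livers, while every spleen was below every marrow and liver.

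Trf had the widest range of all. It reached 19474 CPM in wild-type fetal liver 2 and 7552 CPM in knockout fetal liver 2, but 893 and 1453 CPM in wild-type and knockout livers 4, with 1915 and 3132 CPM in the purchased E13.5 and E14.5 livers. These 6 values keep the order of the hepatocyte list's share of UMIs (10.1%, 4.96%, 0.669%, 1.06%, 2.02% and 3.19% in the same sections). Spleens held 156 to 209 CPM and marrow the least, 54.1 CPM at P8 and 121 CPM at 89 weeks, so that Trf was the one member lower in marrow than in every spleen.

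The mitochondrial genes followed Tfrc. Slc25a37 held 689 to 2251 CPM in the 6 fetal livers (median 1588), 346 and 512 CPM in P8 and 89-week marrow and, in spleens, 113 CPM in the purchased mouse, 627 and 222 CPM in the wild-type sections of the cross and 164 and 222 CPM in its knockout sections. Wild-type spleen 1 was above both marrows, so marrow and spleen overlapped for this importer. Glrx5 held 507 to 1184 CPM in fetal livers (median 719), 403 and 322 CPM in P8 and 89-week marrow, and 179 CPM in the purchased, 282 and 190 CPM in the wild-type and 123 and 131 CPM in the knockout spleens, with no overlap between tissues.

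Fth1, the ferritin subunit that oxidises iron for storage, varied least between tissues. Fetal livers held 1543 to 3709 CPM (median 2966), marrow 1597 CPM at P8 and 2564 CPM at 89 weeks, and spleens 2221 CPM in the purchased mouse, 1358 and 1497 CPM in the wild-type sections of the cross and 1791 and 1751 CPM in its knockout sections. Over all passing spots all 3 tissues overlapped. Fetal liver did so only through wild-type liver 4 (1543 CPM) and knockout liver 4 (2149 CPM). These had the smallest shares of liver spots. The other livers held at least 2909 CPM, above all marrow and spleen sections compared. In liver spots alone, hepatocyte-poor and hepatocyte-rich tertiles (defined below) held 2509 and 2845 CPM in wild-type liver 4. Knockout liver 4 held 2572 and 2800 CPM. Erythroid-poor tertiles of these livers held 1957 and 2192 CPM. Hamp was near the detection limit everywhere: a section held 1 to 66 Hamp UMIs. It reached 3.90 CPM in knockout liver 2 (45 UMIs), 3.27 CPM in knockout liver 4 (55), 2.97 CPM in wild-type liver 2 (60), 0.934 CPM in wild-type liver 4 (37), 1.17 CPM in the purchased E14.5 liver (66) and 0.157 CPM in the E13.5 liver (6). The cross spleens held 1.13 to 2.66 CPM, as much as the livers, while P8 marrow had 1 UMI, 89-week marrow 5 and the purchased spleen 3. With hepatocyte markers near 0 in spleen, no level of Hamp is read as expression by a cell type.

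**Figure D1:**
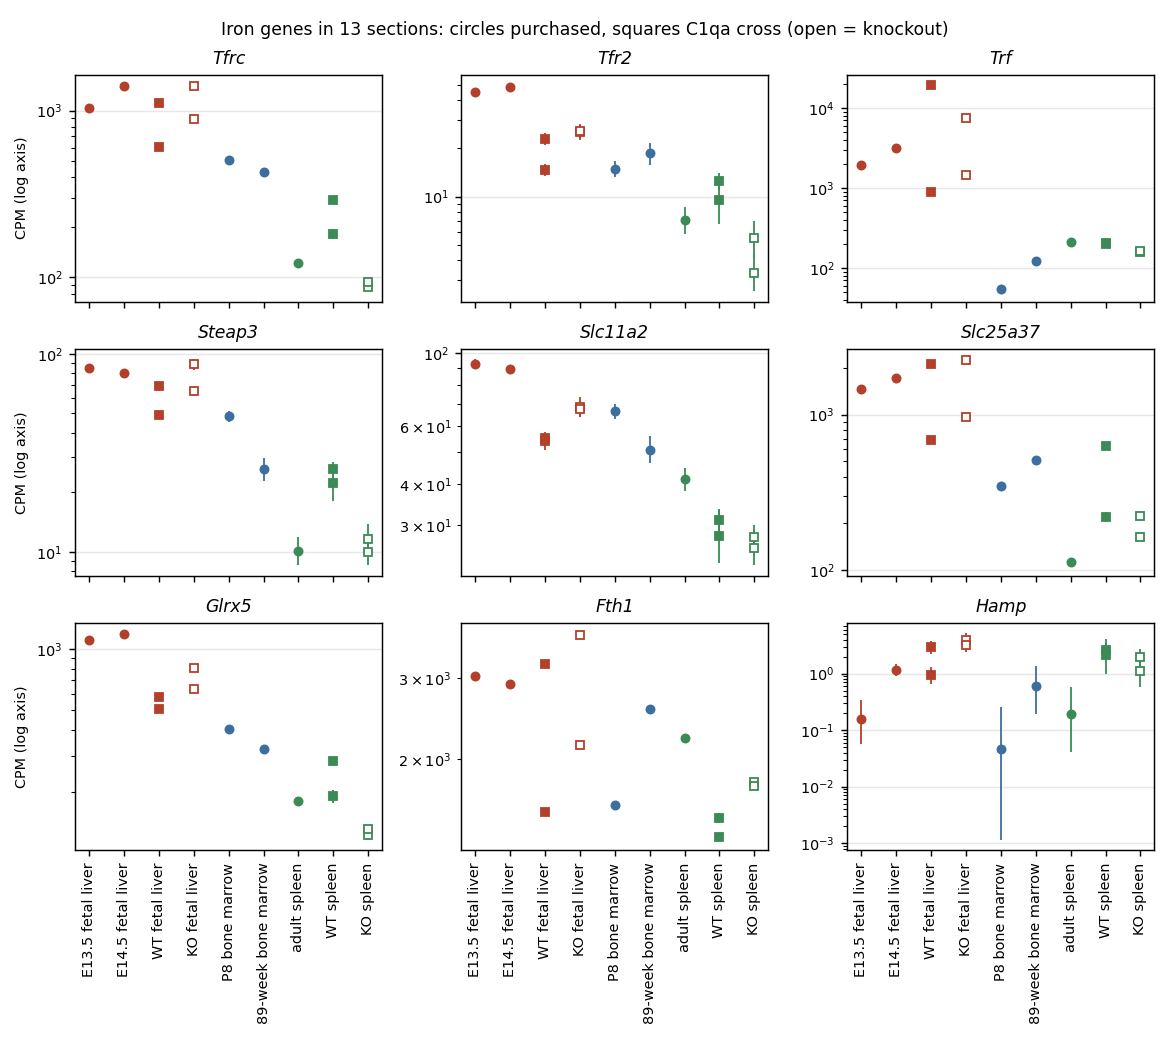
Level of each of the 9 genes in the 13 sections with adequate depth, in CPM on a log axis, one panel per gene and one point per section. Points are coloured by tissue, with circles for purchased mice, filled squares for wild type of the cross and open squares for knockout. Tfrc falls from 602 to 1404 CPM in fetal livers to 88.1 to 292 CPM in spleens with marrow between. Over all passing spots Fth1 overlaps across tissues, and Trf spans 893 to 19474 CPM within fetal liver alone.

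Within the cross, spleens were compared with fetal livers by edgeR's quasi-likelihood test on summed counts, with genotype as a term (4 sections each; adjusted p is Benjamini-Hochberg over all 19087 genes tested). Of the 9 members, 8 were lower in spleen and none higher, against 25.6% of all genes lower, and the median log2 fold change was -2.68 over the members and 0.10 over all genes. Trf showed the largest difference, log2 fold change -6.33 (SE 1.28, adjusted p = 0.00328). Tfrc differed by -3.66 (SE 0.59, adjusted p = 0.000894) and Slc25a37 by -3.36 (SE 0.72, adjusted p = 0.00453). Fth1 had the smallest difference past the threshold, -1.65 (SE 0.57, adjusted p = 0.0383), and Hamp missed it at -1.29 (SE 0.59, adjusted p = 0.0932). The 15 genes of the erythroid list and the 11 of the hepatocyte list were all lower in spleen too, and in summed sections fewer cells of a type and less RNA per cell cannot be told apart. With upper-quartile scaling the split of all genes turned from 4048 higher and 4883 lower to 4704 higher and 3325 lower, and 7 members were called.

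The purchased sections have no replicate, so their differences carry no test, and a gene was counted when it passed 2-fold and 5 CPM in one of the pair, which left out Hamp. Between the E13.5 and E14.5 livers none of the 8 members passed 2-fold, where 1.78% of genes did. Trf was 1.64 times and Tfrc 1.35 times higher at E14.5, and the other 6 lay within 1.19-fold. From the E14.5 liver to the adult spleen 7 of 8 were more than 2-fold lower, against 12.0% of genes, with Slc25a37 15.3-fold, Trf 15.0-fold and Tfrc 11.5-fold lower and Fth1 alone within 2-fold. From the E14.5 liver to P8 marrow 5 of 8 were lower, against 10.8%, led by Trf at 57.9-fold, then Slc25a37 at 4.99-fold and Tfr2 at 3.23-fold. Between P8 and 89-week marrow 1 of 8 members passed 2-fold higher in the old mouse, Trf at 2.24-fold, against 14.4% of genes, and 0 of 8 lower, against 28.3%. The 2 marrow sections also differ in preparation and content, which cannot be told apart from age, with the muscle and skeletal list at 3.41% of UMIs at P8 and 0.00787% at 89 weeks and the neutrophil list at 0.574% and 2.78%. The median gene was 0.76 higher on the log2 scale in the adult spleen than in the E14.5 liver and 0.24 lower in 89-week than in P8 marrow.

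Several members moved together across sections, so the windows around their transcription starts are given here, from RefSeq's annotation of GRCm38.p6 (250 bases before to 50 after each start). Of the 9 members, 6 were matched, with 13 windows; Trf, Slc25a37 and Slc11a2 were not. Both strands were searched for the GATA-type motifs AGATAA and TGATAA, which on the other strand read TTATCT and TTATCA and which resemble the site of the erythroid factor GATA1. The motif was in 1 window each of Tfr2, Steap3 and Hamp and in no window of Tfrc, Fth1 or Glrx5, and 18.6% of all 32851 windows hold it, 21.0% of genes. A match is a match of letters and not a bound site. The windows with a motif are shown with it in capitals, and the first Tfrc window, which has none, is shown beside them because Tfrc carries the genotype result in spleen. The Tfr2 window is chr5:137570725-137571024 on the plus strand with its motif 61 bases before the start, the Steap3 window chr1:120271031-120271330 on the minus strand with the motif 45 bases before, the Hamp window chr7:30943980-30944279 on the minus strand with the motif 128 bases before, and the Tfrc window chr16:32608646-32608945 on the plus strand.
Tfr2: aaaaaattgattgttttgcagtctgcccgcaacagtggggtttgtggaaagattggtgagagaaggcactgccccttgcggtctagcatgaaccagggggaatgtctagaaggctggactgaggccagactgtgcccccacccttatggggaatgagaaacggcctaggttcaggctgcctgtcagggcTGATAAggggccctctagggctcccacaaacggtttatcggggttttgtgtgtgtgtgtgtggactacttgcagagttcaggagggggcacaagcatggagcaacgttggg
Steap3: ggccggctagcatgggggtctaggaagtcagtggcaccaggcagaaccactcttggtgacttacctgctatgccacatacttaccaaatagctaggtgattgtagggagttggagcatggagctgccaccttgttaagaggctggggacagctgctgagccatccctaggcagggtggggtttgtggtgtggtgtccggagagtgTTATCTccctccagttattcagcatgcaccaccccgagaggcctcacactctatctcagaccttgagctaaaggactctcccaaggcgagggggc
Hamp: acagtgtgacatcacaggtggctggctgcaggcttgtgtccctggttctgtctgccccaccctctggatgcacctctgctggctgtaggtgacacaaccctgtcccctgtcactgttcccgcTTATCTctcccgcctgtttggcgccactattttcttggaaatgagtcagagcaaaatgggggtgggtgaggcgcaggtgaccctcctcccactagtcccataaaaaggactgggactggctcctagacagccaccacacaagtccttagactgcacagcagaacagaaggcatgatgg
Tfrc: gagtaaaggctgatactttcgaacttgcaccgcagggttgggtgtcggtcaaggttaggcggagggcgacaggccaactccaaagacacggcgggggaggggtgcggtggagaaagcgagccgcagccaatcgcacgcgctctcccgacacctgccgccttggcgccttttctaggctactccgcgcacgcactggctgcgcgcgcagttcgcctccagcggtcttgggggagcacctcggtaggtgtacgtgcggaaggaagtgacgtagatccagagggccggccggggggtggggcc

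Inside each fetal liver, spots of the liver (at least 0.5% hepatocyte-list UMIs) were ranked by the share of UMIs from the erythroid list, divided into 3 equal parts (tertiles), and the highest and lowest tertiles were compared with section as a term (6 livers; no member is in the list). The erythroid list held 0.718% to 1.13% of UMIs in the rich and 0.311% to 0.712% in the poor tertiles. Slc25a37 rose most. Its level in the rich over the poor tertile was 1.42 and 1.36 times in the purchased E13.5 and E14.5 livers, 1.34 and 3.20 times in wild-type livers 2 and 4 and 1.25 and 2.56 times in knockout livers 2 and 4, higher in all 6, and the fitted log2 difference was 1.03 (SE 0.18, adjusted p = 0.00285). Tfrc was 1.17, 1.16, 1.23, 2.01, 1.15 and 1.70 times higher in the same order, and on the log2 scale the difference was 0.70 (SE 0.12, adjusted p = 0.00243). Both livers numbered 4, the ones with the fewest liver spots, showed the steepest gradients of both genes.

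By this test 8 of the 9 members were higher in the erythroid-rich tertiles, against 7.33% of all genes, with a median log2 fold change of 0.53 for members and 0.07 for all genes. Fth1 (0.57, SE 0.10, adjusted p = 0.00326) and Glrx5 (0.53, SE 0.09, adjusted p = 0.00263) were higher in CPM in all 6 livers. Trf (0.40, adjusted p = 0.0070) was higher in CPM in 5 of 6. Steap3 (0.24, adjusted p = 0.0166), Slc11a2 (0.35, adjusted p = 0.00742) and Tfr2 (0.25, adjusted p = 0.0445) passed on the test's scale, which is relative to the typical gene. In plain CPM the typical gene was at 0.722 to 0.904 times its poor-tertile level and Steap3, Slc11a2 and Tfr2 were at 0.880 to 1.11, 0.951 to 1.31 and 0.914 to 1.27 times, with the direction mixed between livers. Hamp did not pass (0.64, SE 0.33, adjusted p = 0.203). Of the other lists, all 9 measured hemoglobin genes, 7 of 11 macrophage genes and 8 of 11 hepatocyte genes were also higher in the rich tertiles, and their part in the result was not tested. Over all passing spots in place of liver spots 0 of 9 members passed by edgeR, with 7 at an unadjusted p under 0.05.

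Ranking the same spots by the hepatocyte list singled out Trf. It was 2.00 and 1.95 times higher in the hepatocyte-rich tertiles of the purchased E13.5 and E14.5 livers, 2.16 and 2.29 times in wild-type livers 2 and 4 and 2.03 and 1.67 times in knockout livers 2 and 4, and the fitted log2 difference was 1.14 (SE 0.07, adjusted p = 9.88e-10). Tfr2, the sensor that hepatocytes also carry, was higher in all 6 livers, by 1.09 to 1.47 times, or 0.41 on the log2 scale (SE 0.08, adjusted p = 0.00184). Slc25a37 passed at 0.21 (SE 0.06, adjusted p = 0.0473), though its CPM was higher in 4 of 6 livers. These were 3 of 9 members, against 3.67% of genes, and Tfrc was not among them, at 0.820 to 1.21 times (0.14, adjusted p = 0.304). Over all passing spots 0 of 9 passed by edgeR, with 3 at an unadjusted p under 0.05. Hamp, although a hepatocyte hormone, was not called (0.50, adjusted p = 0.496), with 0.0863 to 4.93 CPM over the tertiles.

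Ranking by the macrophage list, which holds no C1q gene, gave small differences. In macrophage-rich tertiles 4 of 9 members were higher, against 3.45% of genes, namely Trf by 0.19 (SE 0.03, adjusted p = 2.63e-06), Slc25a37 by 0.18 (SE 0.03, adjusted p = 3.96e-07), Fth1 by 0.16 (SE 0.03, adjusted p = 4.72e-06) and Glrx5 by 0.09 (SE 0.03, adjusted p = 0.0278) on the log2 scale. In the same tertiles 13 of the 15 erythroid-list genes were higher, and what part they have in the members' differences was not tested. All genes split into 635 higher and 234 lower, and with DESeq2 into 229 higher and 27 lower.

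**Figure D2:**
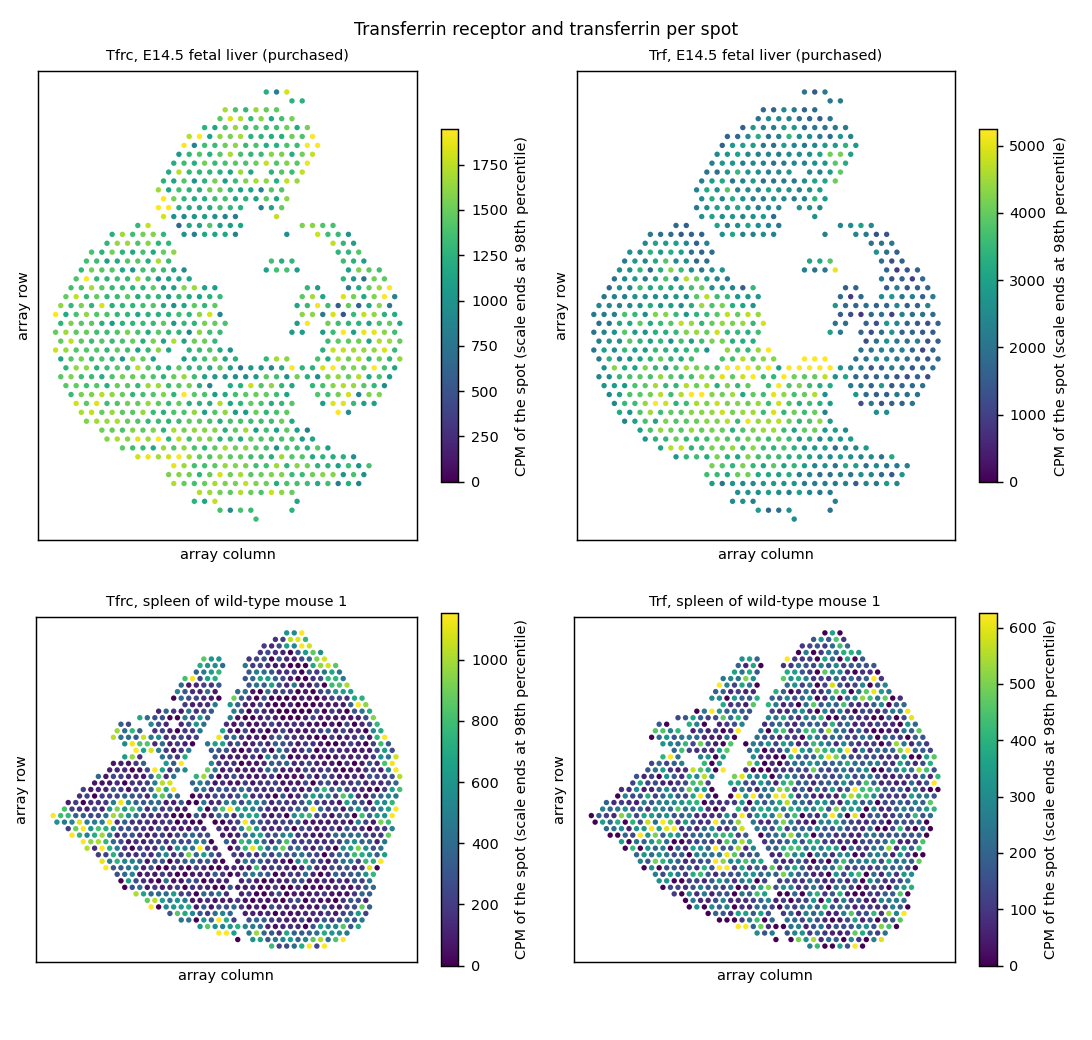
Level of Tfrc and Trf in each spot, in CPM of the spot, at its place on the array for the purchased E14.5 fetal liver and wild-type spleen 1, with the colour scale ending at the 98th percentile of each panel. Trf in liver is highest in a band along one lobe and lowest in another while Tfrc is more even, and in spleen Tfrc is highest along the margins and in scattered patches.

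In spleen, where red pulp holds the erythroid cells and macrophages and white pulp the lymphocytes, the same ranking was made in all 5 sections over passing spots with under 0.5% of UMIs from the pancreas list, which left out 93 spots of wild-type spleen 2, 34 of knockout spleen 1 and 46 of knockout spleen 2. The erythroid list held 0.0840% to 0.781% of UMIs in rich and at most 0.0477% in poor tertiles. In wild-type spleen 2 and knockout spleen 1 the poor tertile held 0%, so its spots were tied in rank. Tied spots were taken in the order of the matrix. In the erythroid-rich tertiles 6 of the 9 members were higher, against 9.45% of genes, with a median log2 fold change of 0.93 over members and -0.00 over all genes. Slc25a37 had 233 and 1252 CPM in the poor and rich tertiles of wild-type spleen 1, 105 and 445 CPM in wild-type spleen 2, 128 and 233 CPM in knockout spleen 1, 139 and 396 CPM in knockout spleen 2 and 96.3 and 153 CPM in the purchased spleen, and its log2 fold change was 1.57 (SE 0.23, adjusted p = 0.000346). It was higher in the rich tertile of all 5. Steap3 differed by 1.35 (SE 0.16, adjusted p = 6.18e-05), Trf by 1.29 (SE 0.10, adjusted p = 2.09e-06), Tfrc by 1.20 (SE 0.27, adjusted p = 0.00719) and Glrx5 by 0.93 (SE 0.20, adjusted p = 0.00549), each higher in all 5 sections. Tfr2 (0.92, SE 0.26, adjusted p = 0.0229) rested on the purchased spleen, where it went from 2.99 to 17.3 CPM, and without that section its log2 fold change was 0.52 and not past the threshold. Fth1 (0.25, adjusted p = 0.0846), Slc11a2 and Hamp did not pass. Upper-quartile scaling moved the split of all genes from 1737 higher and 1977 lower to 1977 higher and 1253 lower.

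Spleen tertiles ranked by the macrophage list also gave 6 of 9 members higher, against 10.6% of genes, with Fth1 among them and Tfr2 not. Trf, which hepatocytes make in liver, stood at 256 against 154 CPM in the macrophage-rich and poor tertiles of wild-type spleen 1, 261 against 130 CPM in wild-type spleen 2, 273 against 92.1 CPM in knockout spleen 1, 296 against 81.6 CPM in knockout spleen 2 and 381 against 125 CPM in the purchased spleen, which on the log2 scale is 1.44 (SE 0.11, adjusted p = 3.45e-08). Trf was higher in all 5 sections, while the hepatocyte list did not exceed 0.00674% of UMIs in any spleen. Steap3 differed by 1.22 (SE 0.19, adjusted p = 9.30e-05), Slc25a37 by 1.17 (SE 0.10, adjusted p = 1.21e-07), Tfrc by 0.63 (SE 0.11, adjusted p = 0.000348), Glrx5 by 0.55 (SE 0.09, adjusted p = 0.000164) and Fth1 by 0.26 (SE 0.07, adjusted p = 0.0185). Each was higher in CPM in all 5 sections but Tfrc, which in knockout spleen 1 was at 0.934 times its level in the poor tertile. All 15 erythroid-list genes were higher in these tertiles and 9 of 11 macrophage-list genes were higher in the erythroid-rich tertiles, so the 2 rankings share their spots in part, and which list a member follows was not tested.

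Marrow has 1 section per preparation and no test. In P8 marrow the erythroid-rich tertile exceeded the erythroid-poor tertile by 14.5 times for Slc25a37 (620 against 42.7 CPM), 13.4 times for Tfr2 (24.7 against 1.85 CPM), 4.72 times for Tfrc, 4.26 times for Glrx5, 2.64 times for Trf, 2.06 times for Fth1, 1.77 times for Slc11a2 and 1.72 times for Steap3. In 89-week marrow the ratios, in the same order of genes, were 2.11, 1.87, 1.73, 1.61, 0.928, 1.18, 1.31 and 1.18. Slc25a37 and Tfr2 headed the order in both sections, Tfr2 on few counts. The poor and rich tertiles held 11 and 263 Tfr2 UMIs at P8 and 31 and 67 at 89 weeks. The ratios are not compared between ages, since the tertiles themselves differ. The erythroid list held 0.0237% of UMIs in the poor and 0.500% in the rich tertile at P8, but 0.241% and 0.555% at 89 weeks, and the P8 section held 3.41% muscle and skeletal UMIs against 0.00787% at 89 weeks, and the part of these differences was not tested.

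The genotype comparison asks what loss of C1qa does to these genes. In spleen the knockout sections were lower for 4 members, the transferrin receptors Tfrc and Tfr2, the reductase Steap3 and the iron-sulfur gene Glrx5. Tfrc held 292 and 182 CPM in the wild-type and 88.1 and 93.3 CPM in the knockout spleens, with no overlap, and the fitted log2 difference was -1.13 (SE 0.20, adjusted p = 0.000785). Tfr2 held 12.5 and 9.47 against 5.48 and 3.34 CPM (-1.14, SE 0.29, adjusted p = 0.0105). Steap3 held 26.2 and 22.2 against 11.6 and 9.91 CPM (-0.94, SE 0.21, adjusted p = 0.0044). Glrx5 held 282 and 190 against 123 and 131 CPM (-0.64, SE 0.19, adjusted p = 0.0251). For all 4, both knockout sections lay below both wild-type sections. The purchased wild-type spleen, from another cohort, held 122, 7.13, 10.1 and 179 CPM of Tfrc, Tfr2, Steap3 and Glrx5, between the genotypes for Tfrc, Tfr2 and Glrx5 and level with the knockouts for Steap3.

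The remaining members did not pass. Slc25a37 was 627 and 222 CPM in the wild-type sections of the cross and 164 and 222 CPM in its knockout spleens, which met at 222 CPM (-0.87, SE 0.31, adjusted p = 0.0509). Fth1, the storage subunit, was higher in both knockouts, 1791 and 1751 against 1358 and 1497 CPM, without passing (0.57, SE 0.21, adjusted p = 0.0551). Trf was 207 and 198 against 156 and 163 CPM (-0.08, adjusted p = 0.722), Slc11a2 31.0 and 27.7 against 25.5 and 27.4 CPM (0.10, adjusted p = 0.669) and Hamp 2.66 and 2.13 against 1.13 and 1.97 CPM (-0.35, adjusted p = 0.558). The fitted values are on the test's scale, which is relative to the typical gene, and can differ from plain CPM. Slc11a2 was fitted above 0 although both knockouts were below both wild types in CPM. The 4 called lower compare with 6.79% of all genes lower, and 0 of 9 higher with 13.8%, and the medians were -0.64 for members and -0.08 for all genes. Upper-quartile scaling turned the split of all genes from 2603 higher and 1283 lower to 1197 higher and 4400 lower, moved the median of all genes to -0.37, and called 5 members.

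Cell composition moved with genotype in these spleens. All 15 genes of the erythroid list were lower in the knockouts (median log2 fold change -2.45), and the list's summed share was 0.330% and 0.125% of UMIs in wild-type against 0.0326% and 0.0587% in knockout sections of the cross. The purchased wild-type spleen, at 0.0377%, lay inside the range of the knockouts. All 8 neutrophil-list genes were lower as well, and 7 of 7 measured pancreas genes were higher, with pancreas-list shares of 0.350% and 2.42% in knockout against 0.00556% and 0.0856% in wild-type sections. Leaving out spots with pancreas genes gave 6 members called. Without knockout spleen 2 no member was called by edgeR, with 5 at an unadjusted p under 0.05, and without wild-type spleen 1 only Tfrc was.

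To see where in the spleen the genotypes differ, the comparison was repeated in the erythroid-poor and the erythroid-rich tertile of each section, after the whole-section values had been seen. Tfrc in the poor tertiles was 121 and 88.1 CPM in the wild-type sections of the cross and 86.9 and 83.6 CPM in its knockout spleens, or -0.05 on the log2 scale (SE 0.19, adjusted p = 0.866). In the rich tertiles it was 588 and 349 CPM in the wild-type sections of the cross and 93.6 and 116 CPM in its knockout spleens, or -2.07 on the log2 scale (SE 0.29, adjusted p = 0.000148). Both wild-type rich tertiles were above every other tertile, and the rich tertile was 3.97 and 4.87 times the poor tertile in the wild-type and 1.08 and 1.39 times in the knockout spleens of the cross. In the purchased wild-type spleen Tfrc went from 97.3 to 180 CPM, or 1.85 times, nearer to the knockouts. Glrx5 went from 148 to 515 and 134 to 308 CPM in wild-type but from 116 to 132 and 124 to 163 CPM in knockout spleens, with genotype effects of 0.03 in the poor and -1.40 in the rich tertiles. In the purchased spleen Glrx5 went from 150 to 261 CPM. Slc25a37 had genotype effects of -0.11 in the poor and -1.35 in the rich tertiles, with the rich tertile at 5.37 and 4.23 times the poor one in wild-type spleens 1 and 2 and 1.82 and 2.86 times in knockout spleens 1 and 2. The purchased wild-type spleen, at 1.59 times for Slc25a37, lay below both knockouts, and it is not part of the genotype test.

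The difference between the 2 genotype effects was tested in 1 model in which each section was compared with itself. Of the 9 members 3 differed, all lower in the knockout's rich tertile relative to its poor tertile, against 1.49% of genes. Tfrc differed by -1.97 (SE 0.21, adjusted p = 3.73e-05), Glrx5 by -1.37 (SE 0.22, adjusted p = 0.00194) and Slc25a37 by -1.19 (SE 0.24, adjusted p = 0.0106). Without knockout spleen 1 only Tfrc passed, at -1.75, and without wild-type spleen 1 Slc25a37 did not. Steap3 (-0.60), Tfr2 (0.24), Fth1 (-0.21), Slc11a2 (-0.82), Trf (0.43) and Hamp (0.15) did not pass. All genes split into 70 higher and 274 lower, and with upper-quartile scaling into 30 and 265. Since the erythroid list held 0.339% to 0.781% of UMIs in the wild-type rich tertiles and 0.0840% to 0.165% in those of the knockout, fewer erythroid cells and less of these transcripts per cell cannot be told apart.

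Tfr2 was lower in the knockouts than in the wild-type spleens of the cross in both tertiles. It held 12.1 and 9.35 CPM in the poor tertiles of wild-type and 4.38 and 3.00 CPM in those of knockout spleens, or -1.38 on the log2 scale (SE 0.37, adjusted p = 0.0277), and in the rich tertiles 14.3 and 10.8 against 7.39 and 4.30 CPM (-1.16, SE 0.34, adjusted p = 0.0234). Both knockouts were below both wild types in each tertile, on few counts. The poor and rich tertiles held 12 and 15 Tfr2 UMIs in wild-type spleen 2 and 88 and 85 in wild-type spleen 1. They held 15 and 24 UMIs in knockout spleen 1 and 18 and 24 in knockout spleen 2. In the purchased wild-type spleen, outside the test, Tfr2 went from 2.99 CPM (14 UMIs) in the poor to 17.3 CPM (71 UMIs) in the rich tertile. Its poor tertile was thus level with the lower knockout, and its rich tertile was above every cross spleen. Steap3 had genotype effects of -0.73 in the poor (adjusted p = 0.123) and -1.32 in the rich tertiles (SE 0.23, adjusted p = 0.00116), and the difference between them, -0.60, did not pass. In the poor tertiles Tfr2 was the 1 of 9 members called lower, against 1.64% of genes, and Fth1 the 1 called higher (0.66, SE 0.20, adjusted p = 0.0481), against 6.17%. In the rich tertiles 5 of 8 members tested were lower, against 7.82%, namely Tfrc, Glrx5, Slc25a37, Steap3 and Tfr2. The neutrophil list was lower in knockout poor tertiles as well (6 of 8 genes), and its part in the Tfr2 difference was not tested.

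**Figure D3:**
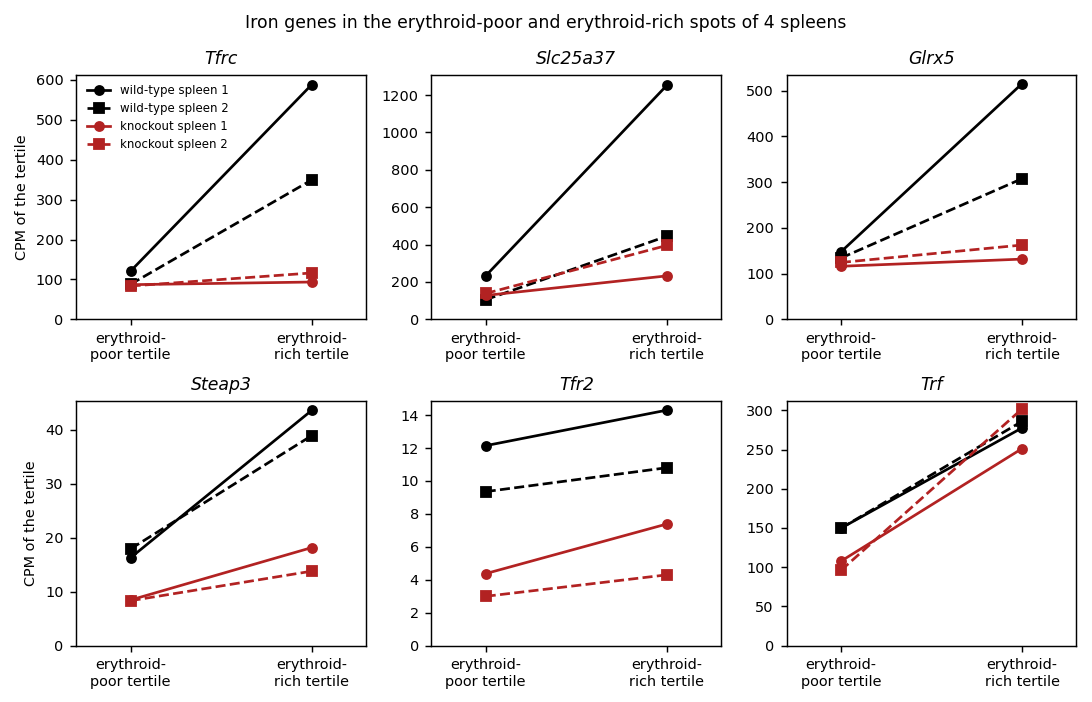
Level of 6 members in the erythroid-poor and erythroid-rich tertile of the 4 cross spleens, in CPM from 0, one line per section, black for wild type and red for knockout. Tfrc climbs to 588 and 349 CPM in the wild-type rich tertiles and ends at 93.6 and 116 CPM in the knockouts. The Trf line of knockout spleen 2 crosses both wild-type lines, while that of knockout spleen 1 stays below them. The Tfr2 lines stay apart in both tertiles, on few counts.

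**Figure D4:**
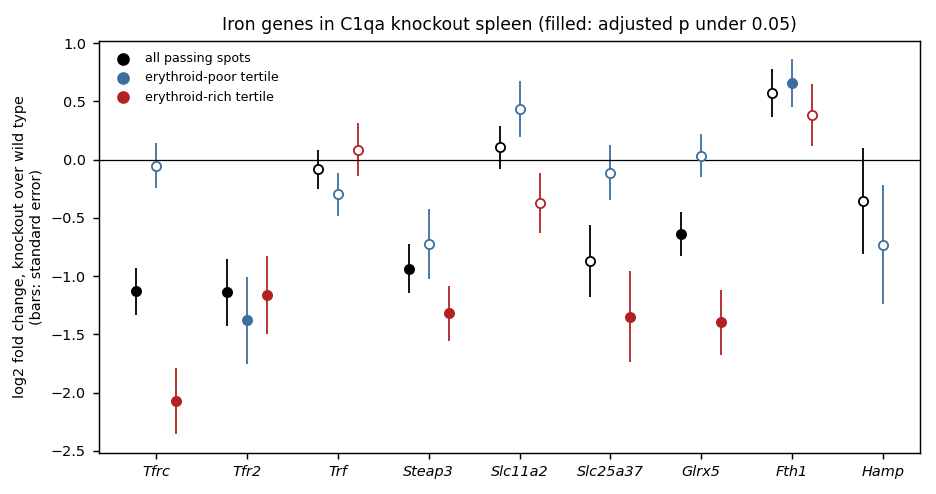
Log2 fold change of knockout over wild-type spleen for each member with its standard error, over all passing spots, which include pancreas spots, and over the erythroid-poor and the erythroid-rich tertile, which leave them out (2 sections per genotype), filled where the adjusted p is under 0.05. Tfrc moves from -0.05 in the poor to -2.07 in the rich tertile, while Tfr2 stays between -1.38 and -1.14 in all 3.

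In fetal liver no member differed between genotypes by edgeR's test, 0 of 9 against 0.00% of 18986 genes. No member had an unadjusted p under 0.05, as 138 genes did, and DESeq2 called 14 genes and 0 members. Log2 fold changes of knockout over wild type were 0.20 (SE 0.98) for Tfrc, -0.03 (SE 1.22) for Slc25a37, 0.23 (SE 0.78) for Glrx5, 0.08 (SE 1.25) for Fth1 and -1.43 (SE 2.23) for Trf, all with adjusted p = 1.00. C1qa itself, at 1 UMI in each knockout liver, had an adjusted p of 1.00 in this fit. Same-numbered livers come from the same dam, and with that litter as a block 157 genes passed (0.827%), C1qa among them, and again 0 of 9 members. Within pair 2, Tfrc was 1114 CPM in wild type and 1404 CPM in knockout, and within pair 4 602 and 894 CPM, so that the knockout was higher in both pairs. In CPM the same held for 8 of the 9 members, all but Trf, which was lower in the knockout of pair 2 and higher in that of pair 4, and the fitted values with the block were positive for the same 8, with Tfrc at 0.24 (SE 0.37, adjusted p = 0.919). The share of passing spots called liver was also higher in the knockout of both pairs, 94.4% and 96.6% in pair 2 and 29.8% and 62.5% in pair 4 for wild type and knockout, and its part was not tested. The log2 fold changes listed first are from the fit without the litter block. Restricted to liver spots and with the block, 8 of 9, all but Hamp, were below 0, with Tfrc at -0.14 (SE 0.56, adjusted p = 0.973).

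Whether the genotype effect differed between spleen and fetal liver was tested as an interaction over the 8 cross sections. No member passed by edgeR's test, 0 of 9 against 0.00% of 19180 genes. No member had an unadjusted p under 0.05, as 2018 genes did, and DESeq2 called 9 genes and 0 members. With the replicate number as a block, 2 of 9 members passed, against 5.90% of genes, both with a lower knockout effect in spleen than in liver, Steap3 by -1.08 (adjusted p = 0.046) and Tfr2 by -1.34 (adjusted p = 0.0425). In spleen the numbers are not known to pair animals, so the block there is a label only.

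The rest of the pathway was read from a list of 45 other iron genes covering hepcidin control, iron sensing, export and storage, other uptake routes, mitochondrial iron use and heme recycling. Between cross spleen and liver 5 were higher and 24 lower of 44 tested (median -1.08), against 21.2% of all genes higher and 25.6% lower, among them Hpx, the plasma heme binder (-6.98), Slc39a8, a zinc and iron importer (-4.18), and the BMP receptor Bmpr1a (-2.99). In knockout against wild-type spleen 7 were higher and 5 lower of 44 (median 0.02), against 13.8% and 6.79% of all genes. Abcb10, the mitochondrial transporter that stabilises mitoferrin, differed by -1.30, while Cp, the ferroxidase ceruloplasmin, was higher at 1.16 and the hemoglobin scavenger receptor Cd163 at 0.72. In the test of the difference between spleen tertiles Abcb10 (-1.91) was the only 1 of 44 to pass, against 1.49% of all genes lower and 0.380% higher. Fetal liver tertiles ranked by hepatocyte genes had 8 higher and 1 lower of 44, against 3.67% and 2.65% of all genes, with Cp at 1.95, the haptoglobin gene Hp at 1.18 and Tmprss6, a hepatocyte protease that restrains hepcidin, at 0.68. Spleen tertiles ranked by the erythroid list had 13 higher and 1 lower of 44, against 9.45% and 10.8% of all genes, and those ranked by the macrophage list 14 higher and 2 lower of 43, against 10.6% and 8.25%, with heme oxygenase Hmox1 at 2.02 and 2.42 and the exporter ferroportin, Slc40a1, at 1.90 and 2.23.

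Genes were then ranked by how like a member's their levels were, by Pearson's r of log2(CPM + 1) over 13 sections among 10307 genes with a mean of at least 10 CPM, as a description. Sections share tissue and litter, so r mostly orders tissues. Tfrc was most like Urod, a heme synthesis enzyme (0.995), and Tal1, an erythroid transcription factor (0.991). Glrx5 was most like the lactate transporter Slc16a1 (0.983) and Cpox, another heme enzyme (0.983), Slc25a37 like Fam210b (0.980), and Steap3 like the red cell cytoskeleton gene Tmod1 (0.982) and Tfrc itself (0.981). Trf was most like Serpina1c (0.988) and Serpina1e (0.987), both hepatocyte protease inhibitors. Slc11a2 was instead most like Ybx3 (0.985) and the dividing-cell genes Hmmr (0.983) and Lig1 (0.978). Among members, Tfrc and Glrx5 had r = 0.972 and Tfrc and Hamp 0.174, and Hamp, with few UMIs, had no gene above 0.918.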

How the data were processed

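The 14 Visium sections hold whole-number UMI counts per probe target and spot, deposited by the authors as filtered and raw matrices, made with Space Ranger on mm10 per the submitters' processing notes, with no normalization. From these counts, UMIs were summed over in-tissue spots with at least 1000 genes, and the section was the replicate. CPM used all UMIs of those spots. Features shared by the cross sections numbered 19465. Comparisons used edgeR 4.0.16 quasi-likelihood tests on summed counts with TMM factors and its low-count filter, and Benjamini-Hochberg adjusted p under 0.05 over all genes tested. DESeq2 1.42.0, upper-quartile factors, no filter, quartiles of spots, other spot sets and leaving out each section were alternatives. Tertiles of spots were ranked within a section by the summed share of a marker list, with section as a term. No pair of same-group sections held the same counts (chi-square per degree of freedom 21.8 to 668). Same-numbered fetal livers share a dam by the study's supplementary legends, and their deviations from the group means correlated across genes (r = 0.70), those of spleens at 0.062. The scripts were tested on simulated data. The named members, marker lists and iron gene lists were chosen with earlier results of these data known; genes named from the iron lists are among the 5 (10 for genotype) called with the smallest adjusted p, and those named as alike among the 3 with the highest r. The labels give sections of 10 µm and spleens of 3 months. The study's methods state both otherwise, while its reporting summary gives 3 months for normal wild-type spleen.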

Additional observations from a re-analysis of the deposited data

Results flagged for a closer look

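The effect of C1qa genotype differed between parts of the same spleens for 3 members, by a test of the difference itself. That was edgeR's quasi-likelihood test on genotype by tertile, Benjamini-Hochberg adjusted over 18434 genes. It was chosen once whole-section results were known. The erythroid list held 0.339% to 0.781% of UMIs in wild-type rich tertiles and 0.0840% to 0.165% in knockout ones. Fewer erythroid cells and less transcript per cell therefore cannot be told apart. In the purchased wild-type spleen, outside the test, rich-over-poor ratios were 1.85 for Tfrc, 1.74 for Glrx5 and 1.59 for Slc25a37. All 3 were below both wild-type spleens of the cross. The log2 genotype effect in the erythroid-rich tertile minus that in the erythroid-poor tertile was -1.97 for Tfrc (adjusted p = 3.73e-05), -1.37 for Glrx5 (adjusted p = 0.00194) and -1.19 for Slc25a37 (adjusted p = 0.0106). Leaving out knockout spleen 1 kept Tfrc past the threshold and not the others.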

How the results depend on the processing

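Over 116 alternatives to the counts of members called, 107 stayed within 1.5 times the reported count, and over 497 alternatives to the 42 member differences past the threshold, 425 kept direction and call, 71 lost the call and 1 turned (Glrx5 in knockout spleen, 0.034 in the erythroid-poor tertile). The cause of each change was not tested. Members called in knockout spleen numbered 4, and 2 in the erythroid-poor tertile (chosen after seeing the data), and leaving out 1 section gave 0 to 6, with 0 without knockout spleen 2, 1 without wild-type spleen 1 and 6 without wild-type spleen 2. Leaving out 1 section gave 1 to 4 members in the test of the difference between spleen tertiles, itself added after seeing the data. Spleen against liver called 8 members, and 5 in wild-type sections alone. The erythroid ranking of fetal liver called 8, but 0 over all passing spots and 4 in the cross alone, and the hepatocyte ranking called 3, but 0 over all passing spots. With the replicate block the interaction called 2 members in place of 0, spleen genotype called 6, 1 of them higher (Fth1), and fetal liver genotype 0. The block changed no other call of a count. Levels without hemoglobin UMIs moved beyond 1 SD for 1 of 27 (Slc11a2, by 11.4%).

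The same counts over all genes moved by more than 1.5 times in places. Fetal liver genotype called 0, but 14 by DESeq2, 157 with the replicate block, 27 in liver spots with the block and 0 to 109 leaving out 1 liver. Spleen genotype called 3886, but 1420 in the erythroid-poor tertile and 240 to 4972 leaving out 1 section. The interaction called 0, but 9 by DESeq2 and 1131 with the block, and the test between spleen tertiles 344, but 112 by DESeq2 and 62 to 1186 leaving out 1 section. Spleen against liver called 8931, and 5744 to 12412 leaving out 1 section. The erythroid ranking called 2524 in liver, but 1087 over all passing spots and 1391 in the cross alone, and 3714 in spleen, but 2252 in the cross alone. The hepatocyte ranking called 1155, but 755 by DESeq2 and 222 over all passing spots, and the macrophage ranking of liver 869, but 256 by DESeq2, 380 over all passing spots and 159 in the cross alone. With upper-quartile factors the median over all genes of the log2 difference went from -0.00 to 0.22 in fetal liver genotype, from -0.08 to -0.37 in spleen genotype, from 0.02 to -0.49 in the interaction and from 0.10 to 0.51 in spleen against liver.

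Values that turned sign were all of members not called, but for the Glrx5 value above. In fetal liver genotype, liver spots gave -0.15 for Steap3, -0.15 for Tfr2, -0.063 for Glrx5, -0.079 for Slc11a2, -0.057 for Tfrc and -0.078 for Fth1, and liver spots with the replicate block, added after seeing the data, gave -0.22, -0.16, -0.12, -0.11, -0.14 and -0.16 in that order. Slc25a37 there was 0.12 with upper-quartile factors and 0.070 with the replicate block. Leaving out 1 liver gave -0.72 to 1.03 for Steap3, -0.44 to 1.11 for Tfr2, -0.25 to 2.27 for Hamp, -3.95 to 2.95 for Trf, -0.61 to 0.88 for Glrx5, -1.54 to 1.72 for Slc25a37, -0.48 to 0.62 for Slc11a2, -0.86 to 1.35 for Tfrc and -1.08 to 1.37 for Fth1. In spleen genotype Trf was 0.042 in lymphocyte-poor spots and 0.086 in the erythroid-rich tertile, and Slc11a2 -0.19 with upper-quartile factors and -0.37 in the erythroid-rich tertile. Leaving out 1 spleen gave -0.22 to 0.021 for Trf, -1.44 to 0.071 for Slc25a37 and -0.054 to 0.22 for Slc11a2. In the interaction Slc11a2 was 0.057 with DESeq2 and 0.0025 with the replicate block, and leaving out 1 section gave -0.47 to 0.58 for Slc11a2, -2.99 to 3.84 for Trf, -2.55 to 0.65 for Slc25a37 and -0.76 to 1.63 for Fth1. In the test between spleen tertiles Hamp ran from -1.71 to 0.50. In the erythroid ranking of spleen Hamp ran from -0.13 to 0.040 and Slc11a2 from -0.045 to 0.28. In the macrophage ranking of spleen Slc11a2 was -0.0061 with DESeq2, -0.055 in the cross alone and -0.092 to 0.17 leaving out 1 section. In that of fetal liver Steap3 was -0.0055 with quartiles and -0.0012 to 0.029 leaving out 1 section, Tfr2 was 0.11 over all passing spots, 0.017 in the cross alone and -0.074 to 0.042 leaving out 1 section, and Slc11a2 was -0.017 in the cross alone and -0.011 to 0.030 leaving out 1 section.

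With 2 sections per genotype and 1 for each purchased tissue, the spread rests on few animals. Same-numbered spleens deviated from their group means with a correlation of 0.062 over genes. With 2 sections per genotype this cannot show whether the numbers pair animals, and they were used as labels only. Hamp, with 1 to 66 UMIs a section, is limited by depth in every comparison. With the limit for a count of 0 set at 3 UMIs over the section's total, a 0 allows up to 0.0534 to 0.710 CPM outside the EDTA-decalcified marrow, where it allows 80.7 CPM. These limits cover counting error only.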

Other observations

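The EDTA-decalcified marrow entered no comparison. Over its 15 passing spots and 37167 UMIs, Tfrc stood at 1130 CPM, Slc25a37 at 1372 CPM, Fth1 at 969 CPM, Glrx5 at 646 CPM, Trf at 108 CPM, Steap3 at 53.8 CPM and Slc11a2 at 26.9 CPM. Hamp had 1 UMI and Tfr2 had 0, with an exact Poisson 95% upper limit of 99.3 CPM for Tfr2. The erythroid list held 0.977% of its UMIs.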
